A study of Mus musculus with 60 samples.

Results

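The small leucine-rich proteoglycans are secreted matrix proteins built on a core of leucine-rich repeats, and 8 of their genes were followed here across all 20 groups of a carcinogen study in mouse fibroblasts: fibromodulin (Fmod), lumican (Lum), the related Prelp, osteomodulin (Omd), decorin (Dcn), biglycan (Bgn), asporin (Aspn) and osteoglycin (Ogn). The members are defined by gene symbol. The platform's gene table gave 19 probe sets for the 8 genes, of 45101 probe sets in all, and each gene was read from its probe set with the highest mean. All 8 were among the 12635 genes tested, of 18194 gene symbols with a probe set. Those genes had a probe set above the median of all probe sets of the array on at least 3 of the 60 arrays, and Lum and Omd lay above it on 32 and 9 of the 60.

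These proteoglycans bind fibrillar collagen and set the width and spacing of its fibrils. Decorin, biglycan and asporin form one class, which carries chondroitin or dermatan sulfate chains in the case of decorin and biglycan. Fibromodulin, lumican, Prelp and osteomodulin form another class, with keratan sulfate chains on several of them, and osteoglycin belongs to another. Decorin and biglycan also bind TGF-beta and surface receptors, and fibroblasts are a main source of several members in connective tissue.

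The cells were Balb/c 3T3, a long-established fibroblast line from BALB/c mouse embryos, and were exposed to 1 of 4 chemical carcinogens or to 0.75% DMSO, the solvent, for 24 h or 120 h. In the spelling of the labels, the chemicals were 2-Acetylaminoflourene (AAF), benzo(a)pyrene (BaP), 2, 4-diaminotoluene (DAT) and 3-methycholanthrene (MCA). Approach 1 used concentrations from the literature at both times, namely AAF 25 µM, BaP 0.5 µM, DAT 50 µM and MCA 2 µM. Approach 2 used concentrations set by growth inhibition (IC20), which were AAF 10 µM, BaP 1.5 µM, DAT 700 µM and MCA 20 µM at 24 h and AAF 10 µM, BaP 0.1 µM, DAT 0.2 µM and MCA 0.1 µM at 120 h. Each approach had its own DMSO groups at both times, and each of the 20 groups had 3 arrays. The 3 arrays of a group came from an experiment run in triplicate, and nothing in the labels says that they came from separate cultures, so the p-values measure the spread between these samples, which may be technical. All cells were of 1 line, so the results describe that line in culture.

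Intensities are on the linear scale as deposited, and the authors had scaled the approaches differently. With 2% of values trimmed from each end, every approach 2 array averaged 500, whereas approach 1 arrays averaged 153 to 188. Levels are therefore given within each approach and not compared between them. Differences are on the scale of log2(intensity + 16) after quantile normalization within the approach, which understates the change of dim genes such as Lum and Omd. "Rose" and "fell" are used of differences with a Benjamini-Hochberg adjusted p under 0.05 in limma. Of 9 fibroblast markers, 8 (including Col1a1, Col1a2, Pdgfra and Vim) lay above the array median on all 60 arrays. Pecam1 and Cdh5 of endothelium, Ptprc of leukocytes, Ibsp of bone, Col2a1, Acan and Matn3 of cartilage, Tnmd and Thbs4 of tendon and Adipoq of fat lay above it on 0 arrays. Of the 5 smooth muscle markers, Acta2 lay above it on all 60 arrays and Des on 50, while Cnn1 and Myh11 did on 0. Single markers of other lists lay above it widely too: Mkx of tendon, Sox9 of cartilage and Lyz2 of macrophages on all 60 arrays, Csf1r on 59, Epcam on 53 and Sp7 of bone on 51. Adgre1 and Cd68 of macrophages did so on 29 and 23 arrays, Comp of cartilage on 21, and Scx of tendon and Pparg of fat on 20 each.

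The members lie in few places of the genome. In the RefSeq annotation of GRCm38.p6, Aspn, Omd and Ogn follow one another on chromosome 13 with 0 protein-coding genes between neighbours, as do Dcn and Lum on chromosome 10 and Prelp and Fmod on chromosome 1, and Bgn is on the X chromosome. RefSeq's promoter table held 6 of the 8 members. The 250 bases before the start site are printed for Fmod, Aspn and Ogn, which fell together in several treated groups (below), and for Bgn, which varied least, each on the gene's own strand. Capitals mark GCGTG, the core of the site bound by the aryl hydrocarbon receptor, or TATAAA, the letters of the TATA box. Both were sought on either strand (CACGC and TTTATA), with overlapping matches merged.
Fmod (chr1:134037004-134037253, plus strand): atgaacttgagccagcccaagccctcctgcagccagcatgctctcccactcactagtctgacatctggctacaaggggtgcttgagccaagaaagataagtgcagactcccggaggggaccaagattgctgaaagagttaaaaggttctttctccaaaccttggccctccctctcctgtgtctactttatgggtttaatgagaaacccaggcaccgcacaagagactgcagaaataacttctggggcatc
Aspn (chr13:49544193-49544442, plus strand): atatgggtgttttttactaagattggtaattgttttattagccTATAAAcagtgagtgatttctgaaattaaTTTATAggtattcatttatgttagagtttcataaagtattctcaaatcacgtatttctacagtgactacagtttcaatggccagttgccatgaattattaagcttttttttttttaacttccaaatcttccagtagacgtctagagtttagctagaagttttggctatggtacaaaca
Ogn (chr13:49607765-49608014, plus strand): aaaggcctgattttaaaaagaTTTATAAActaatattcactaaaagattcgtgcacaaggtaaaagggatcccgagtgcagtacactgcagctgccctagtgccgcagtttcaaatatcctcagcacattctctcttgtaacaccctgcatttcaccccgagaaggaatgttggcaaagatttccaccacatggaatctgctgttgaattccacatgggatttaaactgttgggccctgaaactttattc
Bgn (chrX:73483351-73483600, plus strand): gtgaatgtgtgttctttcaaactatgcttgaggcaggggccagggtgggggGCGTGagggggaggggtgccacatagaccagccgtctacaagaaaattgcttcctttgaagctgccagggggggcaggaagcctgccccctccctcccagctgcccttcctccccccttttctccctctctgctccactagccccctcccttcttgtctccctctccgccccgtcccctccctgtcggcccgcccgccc
GCGTG or CACGC occurred in 1 of the 6 windows, once in Bgn at 199 bases before the start, against 28.2% of 32851 promoter windows of the same length in the table. TATAAA or TTTATA occurred in 2 of the 6, Aspn and Ogn, against 12.4% of all windows. None of these letters occurred in the windows of Fmod, Prelp and Omd, which says nothing beyond these 250 bases.

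The members ran from bright genes to Lum and Omd, which lay near or below the array median, itself 41.2 to 47.1 in approach 1 and 56.3 to 98.9 in approach 2. Bgn had a median intensity of 6585 in approach 1 and 17369 in approach 2, and over the 30 arrays of each approach it ranged from 5556 to 7954 and from 14283 to 21156. Dcn ranged from 1726 to 7414 in approach 1 and from 4632 to 18998 in approach 2, and Ogn from 1121 to 4163 and from 1143 to 11359. These spans say how far each gene moved, not how genes compare with each other, since probe sets differ in brightness per transcript. Aspn ranged from 234 to 1305 in approach 1 and from 181 to 3561 in approach 2, Fmod from 64.1 to 1104 and from 275 to 1251, and Prelp from 100.5 to 495 and from 217 to 882. At the dim end, Lum spanned 4.16 to 164 in approach 1 and 35.5 to 208 in approach 2, and Omd 8.23 to 33.2 and 8.64 to 95.8.

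**Figure D1:**
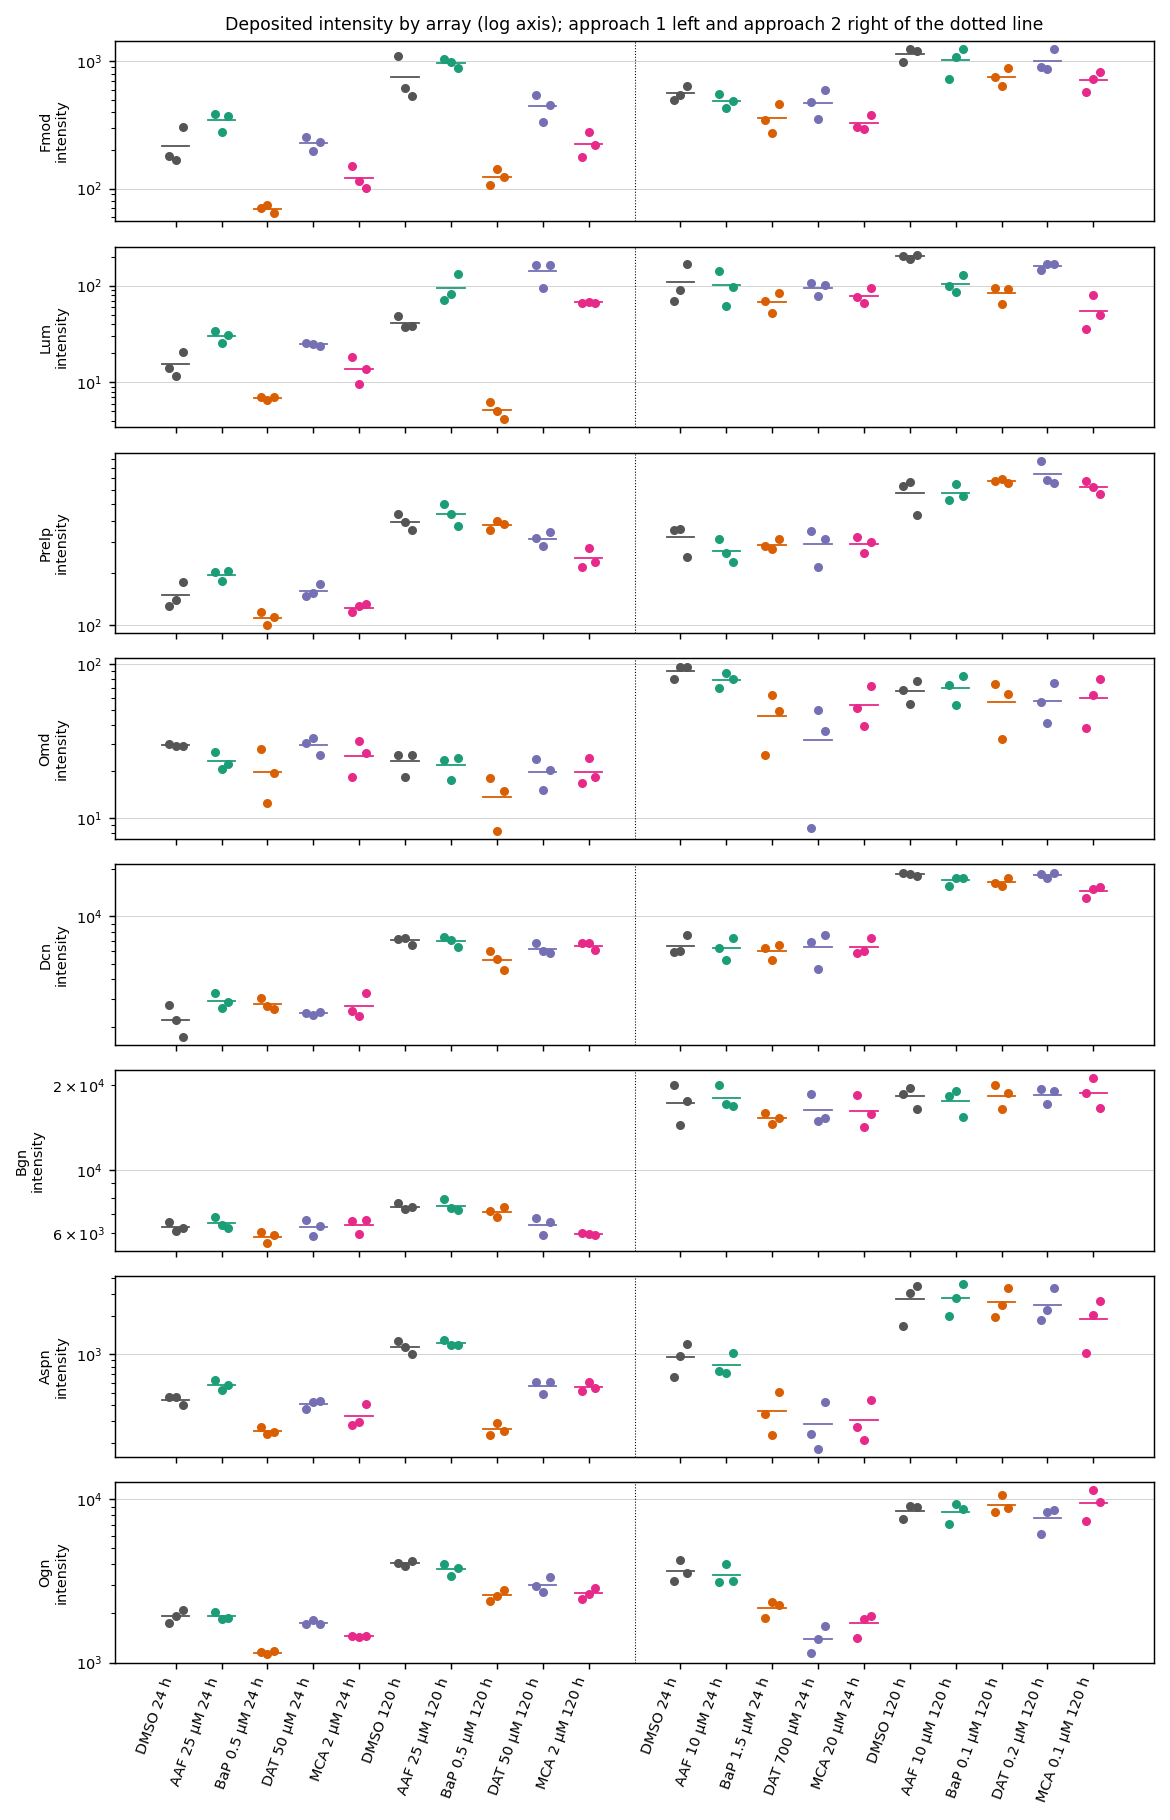
Deposited intensity (log axis) of each of the 8 genes on every array, by group, with approach 1 left and approach 2 right of the dotted line; points are the 3 arrays of a group and bars their mean. Dcn and Ogn lie higher at 120 h than at 24 h in both approaches, and Bgn stays between 5556 and 7954 in approach 1. In approach 1 the mean of Fmod is lowest with BaP 0.5 µM at 24 h, and the means of Aspn are lowest with BaP 0.5 µM at both times.

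The spread between arrays of a group differed widely among the members. Fmod had a residual SD of 0.27 (log2) in approach 1, at the 97.5th percentile of the genes tested, where the median gene had 0.11. In approach 2 its SD was 0.30, at the 70.9th percentile, where the median gene had 0.22. The highest of the 3 Fmod arrays exceeded the lowest by 1.15 to 2.07 times over the groups of approach 1. The widest gap was in the DMSO controls at 120 h, with 532, 619 and 1104, and the DMSO controls at 24 h gave 168, 181 and 306. Fmod of both control groups in approach 1 therefore rests on 2 arrays near each other and 1 apart. Bgn was at the other end, with a residual SD of 0.055 in approach 1 and 0.081 in approach 2, at the 2.80th and 2.76th percentiles. Aspn had 0.15 in approach 1 (71.1th percentile) and 0.52 in approach 2 (93.1th percentile). Spread depends on brightness, and among genes of similar mean level Bgn was at the 45.2th and 43.7th percentiles of approaches 1 and 2. By that measure Dcn was at the 98.6th and 91.0th, Aspn at the 91.0th and 99.2th, and Fmod at the 98.8th and 87.4th.

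Part of that spread followed the replicate number. In approach 2, after normalization, replicate 3 had the highest Aspn and Dcn value of the 3 arrays in 10 of 10 groups, and replicate 1 the lowest Ogn value in 10 of 10. Fmod was highest in replicate 3 in 8 of 10 groups. In the same approach replicate 3 had the lowest log2 ratio of 3' to 5' probe sets, a sign of RNA quality, in 10 of 10 groups for beta-actin and for GAPDH, and its part in the spread was not tested. In approach 1 the numbers ran another way for Dcn, which was highest in replicate 1 in 8 of 10 groups and lowest in replicate 3 in 7. Bgn was highest in replicate 1 in 8 groups there and Lum in 7, while Aspn was highest in replicate 3 in 2 groups, Fmod in 2 and Ogn in 5. The beta-actin ratio of approach 1 was lowest in replicate 1 in 7 groups. Deviations of Fmod and Aspn from their group means had a Pearson correlation of 0.88 over the 30 arrays of approach 2 and 0.12 over those of approach 1, values that describe arrays that share replicate numbers and scaling. The genes whose deviations were most like those of Fmod, ranked by the lower correlation of the approaches, were Pdgfrl (0.84 in approach 1 and 0.86 in approach 2), Lyz1 (0.85 and 0.76), Clu (0.77 and 0.75), Bag5 (0.76 and 0.75) and 8430436N08Rik (0.74 and 0.80).

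**Figure D2:**
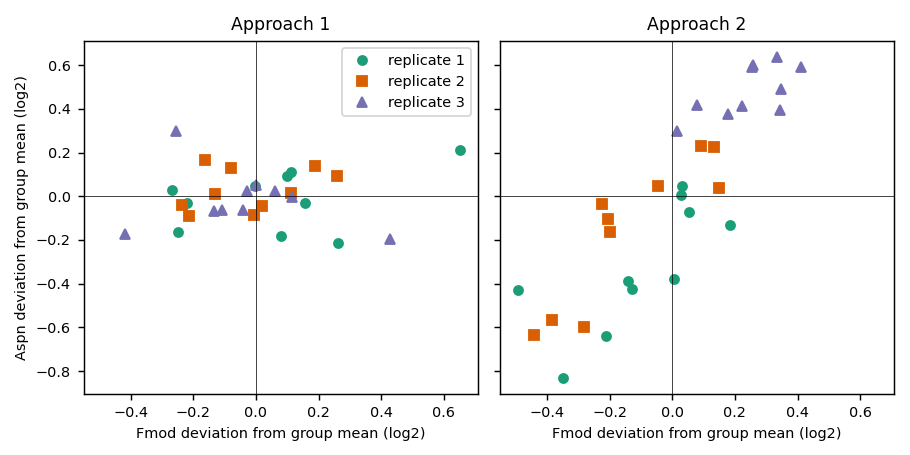
Deviation of Aspn (y axis, log2) against that of Fmod (x axis, log2) from the mean of their group on each of the 30 arrays of approach 1 (left) and approach 2 (right), with the replicate number as colour and shape. In approach 2 the replicate 3 arrays lie together at the upper right and the correlation was 0.88, against 0.12 in approach 1.

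Between 24 h and 120 h in DMSO most of the family rose. In approach 1, 7 of 8 members rose and 0 fell, while 29.3% of all genes tested rose, 28.5% fell and 57.7% were called in either direction. In approach 2, 6 rose and 1 fell, where 17.8% of genes rose, 22.4% fell and 40.2% were called. The median difference over the members was 1.19 in approach 1 and 0.72 in approach 2, against 0.00 and -0.05 over all genes. Other measures differed between the same DMSO groups. In approach 2 the beta-actin ratio was 0.21 to 0.35 at 24 h and 0.40 to 0.64 at 120 h, and that of GAPDH averaged -0.32 and -0.46, without overlap. In approach 1 the beta-actin ratio overlapped between the times (0.26 to 0.33 and 0.28 to 0.33), and that of GAPDH averaged -0.28 and -0.18, without overlap. Of the summed intensities of the 9 marker lists, 6 were higher and 1 lower at 120 h without overlap in approach 1, and 3 were higher and 3 lower in approach 2. In approach 2 the macrophage sum lay at 514 to 617 at 24 h and 827 to 871 at 120 h, and the epithelial sum at 102 to 194 and 277 to 299. In approach 1 the macrophage sum lay at 389 to 416 and 466 to 537, and the epithelial sum at 171 to 234 and 273 to 286. The part of these measures in the results was not tested. In a bulk sample, fewer cells of a kind and less RNA per cell cannot be told apart, which holds for each difference below.

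Dcn, which coats collagen fibrils and binds TGF-beta, had intensities of 1726, 2208 and 2732 at 24 h and 6596, 7213 and 7349 at 120 h in DMSO of approach 1. In approach 2 it went from 5949, 6015 and 7650 to 18145, 18580 and 18998. The groups did not overlap in either approach, and the differences were 1.71 ± 0.13 (SE, adjusted p = 6.17e-12) and 1.70 ± 0.14 (adjusted p = 3.81e-10). A second, dim Dcn probe set, with median intensities of 35.4 and 102, gave 0.32 and 1.88. Ogn rose from 1740, 1938 and 2101 to 3896, 4077 and 4163 in approach 1 (1.07 ± 0.07, adjusted p = 2.66e-13). In approach 2 it rose from 3138, 3531 and 4250 to 7546, 8950 and 9059 (1.39 ± 0.17, adjusted p = 2.33e-07).

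Aspn, a relative of decorin that binds collagen and carries an aspartate-rich stretch, rose with time by 1.37 ± 0.11 in approach 1 (adjusted p = 2.70e-11) and 1.47 ± 0.38 in approach 2 (adjusted p = 0.0030). Its DMSO arrays went from 400, 461 and 461 to 1011, 1138 and 1283 in approach 1 and from 662, 972 and 1217 to 1668, 3039 and 3483 in approach 2. The groups did not overlap, although approach 2 spread much more. Fmod rose by 1.69 ± 0.20 (adjusted p = 2.90e-08) in approach 1, from a mean of 218 ± 76.1 (SD, n = 3) to 752 ± 308, and by 0.89 ± 0.23 (adjusted p = 0.0028) in approach 2, from 562 ± 71.8 to 1147 ± 132. Without any one of the 6 DMSO arrays the rise in approach 1 was 1.36 to 1.90.

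Prelp, which binds collagen and heparan sulfate, rose by 1.30 ± 0.11 in approach 1 (adjusted p = 7.02e-11), from 149 ± 24.9 to 394 ± 41.6. In approach 2 it rose by 0.55 ± 0.19 (adjusted p = 0.024), but its second probe set gave -0.16 there, and the mean of both probe sets 0.19 (adjusted p = 0.59). Bgn, the brightest member, moved least: 0.26 ± 0.05 in approach 1 and 0.24 ± 0.07 in approach 2, both past the threshold (adjusted p = 5.66e-05 and 0.0058). On the values as deposited, without normalization, the Bgn difference in approach 2 was 0.08 (adjusted p = 0.62), and there the median over all genes was 0.11 in place of -0.05.

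Lum, which organises corneal and skin collagen, rose in approach 1 by 0.82 ± 0.15 (adjusted p = 3.39e-05), from 11.6, 14.1 and 20.7 to 37.3, 38.2 and 48.8. In approach 2 its DMSO arrays read 70.1, 90.8 and 168 at 24 h and 191, 204 and 208 at 120 h, a difference of 0.36 (95% interval -0.33 to 1.06) that did not pass the test. On the values as deposited it was 0.87 and passed (adjusted p = 0.0097). Omd, best known from bone, was the 1 member not higher at 120 h. Its difference was -0.28 in approach 1, which did not pass, and it fell by 0.84 in approach 2 (adjusted p = 0.046), a call lost without normalization (-0.37, adjusted p = 0.36) and without each of 5 of the 6 DMSO arrays in turn.

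**Figure D3:**
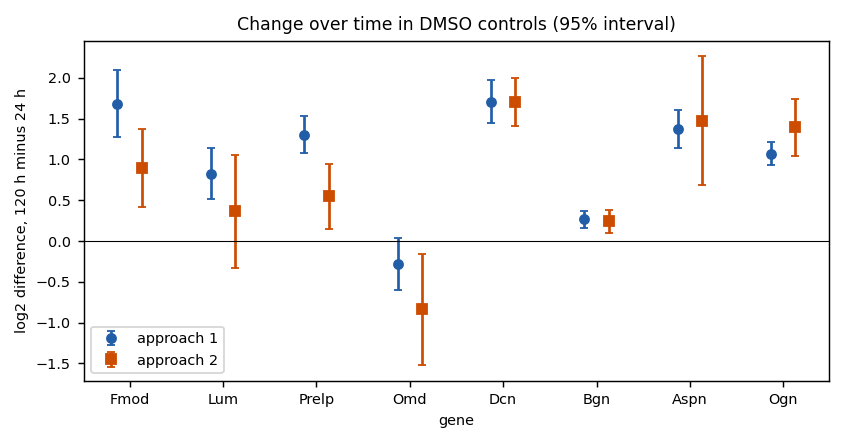
Difference between 120 h and 24 h in the DMSO controls (y axis, log2) for each gene (x axis), with circles for approach 1, squares for approach 2 and bars for 95% intervals of the limma fit. Dcn changed alike in size, 1.71 and 1.70, Bgn stayed below 0.3, and Omd was below 0 in both approaches.

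Of the lists around the family, the collagen list had the highest share of genes that rose with time in DMSO, read against 29.3% of all genes in approach 1 and 17.8% in approach 2. Of 14 tested genes for collagens that these proteoglycans bind and for collagen-processing enzymes (with lysyl oxidases), 13 rose and 1 fell in approach 1 and 12 rose and 1 fell in approach 2, with medians of 0.89 and 0.79. The largest rise in approach 1 was that of Col11a1, a minor fibrillar collagen, at 1.57. The 1 that fell was Col12a1, by 0.24 in approach 1 (named after its value was seen) and 1.10 in approach 2. Of 10 proteases known to process or cut members, 8 rose and 1 fell in approach 1 and 5 rose and 1 fell in approach 2, led by Mmp13 at 2.43 and Mmp2 at 1.71 in approach 1. Of 21 enzymes of glycosaminoglycan synthesis, 9 rose, 1 fell and 11 did not pass in approach 1, and 3 rose, 1 fell and 17 did not pass in approach 2, a smaller share than over all genes in approach 2. Chst15, a chondroitin sulfotransferase, rose by 1.46 and 1.30, and Chst1, a keratan sulfate sulfotransferase, fell by 1.04 and 1.27. Of 15 growth factors and receptors bound by members, 9 rose and 2 fell in approach 1 and 6 rose and 1 fell in approach 2, led by Lrp1 (1.56 and 1.81) and Igf1r (1.27 and 1.28).

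Fmod, Aspn and Ogn fell with BaP 0.5 µM at both times. At 24 h in approach 1, 4 of 8 members fell and 0 rose, where 4.91% of genes fell, 4.52% rose and 9.43% were called. Fmod read 64.1, 70.1 and 73.8 with BaP against 168, 181 and 306 in DMSO, and fell by 1.40 ± 0.20 (adjusted p = 1.42e-05). The BaP arrays lay close together, below every control array. Aspn fell by 0.79 ± 0.11 (adjusted p = 1.50e-05), from 441 ± 35.1 to 249 ± 17.8, and Ogn by 0.73 ± 0.07 (adjusted p = 1.91e-08), from 1926 ± 181 to 1149 ± 25.2. Prelp fell by 0.40 ± 0.11 (adjusted p = 0.021), a call lost without each of 4 arrays in turn (adjusted p up to 0.16). Dcn was at 0.35 and Lum at -0.44, which did not pass (adjusted p = 0.089 and 0.066). With the replicate number as a block both passed (adjusted p = 0.038 and 0.031), Dcn higher and Lum lower.

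At 120 h with BaP 0.5 µM, 5 members fell and 0 rose, where 13% of genes fell, 13.8% rose and 26.8% were called. Fmod read 106, 123 and 143 against 532, 619 and 1104, and fell by 2.49 ± 0.20, or 5.60-fold (adjusted p = 1.48e-10). Aspn read 234, 251 and 290 against 1011, 1138 and 1283, and fell by 2.17 ± 0.11, or 4.50-fold (adjusted p = 3.90e-14). For both genes the BaP arrays at 120 h stood well below all DMSO arrays of that time, and Aspn was level with BaP at 24 h (249 ± 17.8 and 258 ± 29.0). Lum read 4.16, 5.08 and 6.19 against 37.3, 38.2 and 48.8 and fell by 1.38 ± 0.15 (adjusted p = 5.89e-08), the only group of approach 1 whose Lum fell without a replicate block. Ogn fell by 0.58 ± 0.07 (adjusted p = 2.25e-07), from 4046 ± 136 to 2583 ± 202. Dcn fell by 0.40 ± 0.13 (adjusted p = 0.020), a call lost without any of 3 arrays (adjusted p up to 0.12). Prelp (-0.11), Omd (-0.36) and Bgn (-0.05) did not pass.

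MCA 2 µM, like BaP a polycyclic aromatic hydrocarbon, was tested at a different concentration, so the values stand side by side without a test between the chemicals. At 24 h, 2 members fell, where 1.14% of genes fell, 1.08% rose and 2.22% were called: Ogn by 0.40 ± 0.07 (adjusted p = 7.43e-04) and Aspn by 0.41 ± 0.11 (adjusted p = 0.044). The Aspn arrays overlapped the controls, with 279, 293 and 409 against 400, 461 and 461, and the call was lost without any of 4 arrays (adjusted p up to 0.30). Fmod read 101, 114 and 151, below all controls, and its difference of -0.71 missed the threshold (adjusted p = 0.053).

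At 120 h with MCA 2 µM, 5 members fell and 1 rose, where 20.3% of genes fell, 18.9% rose and 39.2% were called. Fmod fell by 1.63 ± 0.20 (adjusted p = 1.71e-07), with arrays of 176, 221 and 278, and Aspn by 1.04 ± 0.11 (adjusted p = 2.10e-08), with 518, 543 and 610. Ogn fell by 0.59 ± 0.07 (adjusted p = 1.02e-07) and Prelp by 0.67 ± 0.11 (adjusted p = 1.86e-05). Bgn fell by 0.33 ± 0.05 (adjusted p = 7.51e-06), from 7287, 7404 and 7685 to 5896, 5982 and 5996. Lum rose by 0.61 ± 0.15 (adjusted p = 0.0020), from 37.3, 38.2 and 48.8 to 66.1, 66.7 and 68.2, so the group's arrays lay within a narrow band above all controls. Dcn and Omd did not pass, at -0.11 and -0.09.

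DAT is an aromatic amine and AAF an acetylated one. With DAT 50 µM at 24 h, 0 of 8 members passed the limma test, where 0.174% of genes were called (0.095% higher and 0.0791% lower), and 2 members (Lum and Ogn) had an unadjusted p under 0.05, against 10.4% of all genes. At 120 h, 4 members fell and 1 rose, where 12% of genes fell, 11.7% rose and 23.8% were called. Lum read 94.8, 163 and 164 and rose by 1.46 ± 0.15 or 2.75-fold (adjusted p = 3.95e-08), its largest rise in the study. Aspn fell by 0.98 ± 0.11 (adjusted p = 1.81e-07), with 490, 607 and 609, and Ogn by 0.39 ± 0.07 (adjusted p = 1.38e-04). Fmod read 336, 458 and 540 against 532, 619 and 1104, so that the deposited intensities overlapped, and fell by 0.65 ± 0.20 (adjusted p = 0.016). Without the DMSO array at 1104 the Fmod difference was -0.33 (adjusted p = 0.20), and without that array the fall of Bgn, 0.17 ± 0.05 (adjusted p = 0.014), was 0.14 (adjusted p = 0.083). The Fmod call was lost too without the lowest DAT array (-0.59, adjusted p = 0.063).

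Over its 4 comparisons with DMSO, AAF gave 1 call among the members. With AAF 25 µM at 24 h, 0 of 8 passed the limma test, where 0.91% of genes were called (0.609% higher and 0.301% lower), but 5 members (Fmod, Lum, Prelp, Dcn and Aspn) had an unadjusted p under 0.05 and all 5 were above DMSO, against 11.9% of all genes with such a p. The largest of these differences were 0.66 in Fmod (adjusted p = 0.11), with 281, 375 and 384 on the arrays, and 0.57 in Lum (adjusted p = 0.074). With the replicate number as a block Lum and Dcn passed (adjusted p = 0.026 and 0.048). Without the DMSO array at 306, Fmod (0.87, adjusted p = 0.031) and Lum (0.70, adjusted p = 0.031) passed. At 120 h, 1 member rose, where 0.324% of genes rose, 0.0317% fell and 0.356% were called. That was Lum, with 71.6, 82.0 and 133, by 0.91 ± 0.15 (adjusted p = 0.0026), and without the array at 133 the difference was 0.68 (adjusted p = 0.056). Without the DMSO array at 1104, Fmod too was higher with AAF at 120 h (0.74, adjusted p = 0.034), from 0.42 with all arrays.

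**Figure D4:**
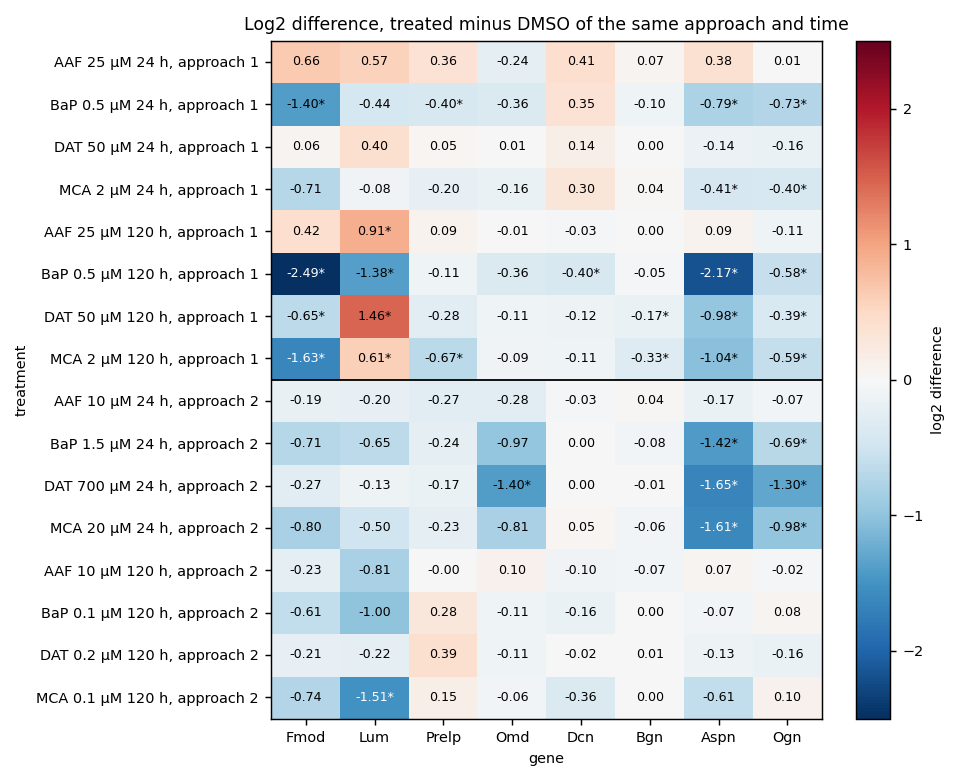
Log2 difference between treated and DMSO arrays of the same approach and time for the 16 treatments (rows) and 8 genes (columns), with red for higher and blue for lower; an asterisk marks an adjusted p under 0.05. The line parts approach 1 from approach 2. Aspn and Ogn carry most of the asterisks, Lum alone has marked rises, and Bgn is close to 0 in most rows.

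The response differed between the times for some members, which the fit tested as the 120 h difference minus the 24 h difference at the same concentration. With BaP 0.5 µM, 4 members responded lower at 120 h, where 3.48% of genes did and 8.52% were called: Aspn by 1.38 (adjusted p = 9.36e-07), Fmod by 1.08 (adjusted p = 0.012), Lum by 0.93 (adjusted p = 0.0047) and Dcn by 0.75 (adjusted p = 0.0072). With MCA 2 µM, 4 responded lower and 1 higher, where 13.4% and 14.8% of genes did and 28.2% were called. With DAT 50 µM, Aspn responded lower and Lum higher, where 3.29% and 4.91% of genes did and 8.21% were called. With AAF 25 µM, 0 of 8 passed in limma, where 0.0554% of genes were called, and 1 (Dcn) had an unadjusted p under 0.05. In 1 fit of all 60 arrays, the calls of Lum and Aspn with each of BaP and DAT and of Lum, Prelp and Aspn with MCA were lost, as were those of Prelp and Aspn with BaP and of Aspn and Ogn with MCA at 24 h, and of Lum with AAF and MCA and of Fmod, Bgn and Ogn with DAT at 120 h. Ogn did not pass in any of these contrasts. Its difference between the times was 0.15 (95% interval -0.05 to 0.35) with BaP, -0.22 (-0.43 to -0.02) with DAT and -0.19 (-0.39 to 0.01) with MCA.

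**Figure D5:**
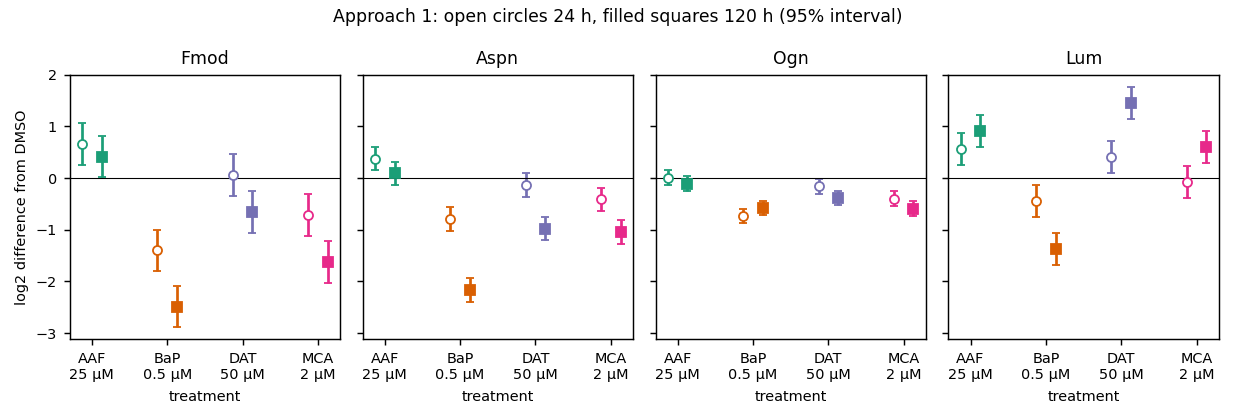
Difference from DMSO (y axis, log2) of Fmod, Aspn, Ogn and Lum with the 4 treatments of approach 1 (x axis), as open circles at 24 h and filled squares at 120 h with 95% intervals. With BaP all 4 genes are below 0 at 120 h, and with DAT and MCA at 120 h Lum is above 0 while the other 3 are below it.

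Lum and its relatives thus parted in approach 1 at 120 h: with DAT 50 µM and MCA 2 µM Lum rose while Fmod, Aspn and Ogn fell, and with BaP 0.5 µM all 4 fell. The Fmod call with DAT was lost when single arrays were left out (above). Dcn, the neighbour of Lum on chromosome 10, did not pass with DAT or MCA. In the order of Lum levels of approach 1, DAT, AAF and MCA at 120 h came first, with overlap after normalization between DAT and AAF and between AAF and MCA, then DMSO at 120 h, and both BaP groups came last. For Fmod, AAF and DMSO at 120 h came first and overlapped, and BaP at 24 h came last without overlap with the group above it.

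Expression of other markers moved with these groups. At 120 h in approach 1, 4 of the 9 marker sums lay below DMSO without overlap with BaP, 3 below and 1 above with MCA, 1 below and 1 above with DAT, and 3 below with AAF. At 24 h there, 3 lay below with BaP (fibroblast, cartilage and smooth muscle) and 2 below with MCA (cartilage and smooth muscle). With AAF 3 lay above (fibroblast, endothelium and macrophage), and with DAT 1 lay above (macrophage). The summed intensity of the 5 smooth muscle markers, nearly all of it Acta2, was 1984 to 2406 in DMSO at 24 h and 6583 to 6669 in DMSO at 120 h of approach 1. At 120 h it was 1439 to 1957 with MCA, 3164 to 3431 with DAT, 3883 to 3985 with BaP and 4803 to 5983 with AAF. The summed intensity of the 9 fibroblast markers was 29883 to 31577 in DMSO at 24 h and 35452 to 38312 at 120 h, and at 120 h 29392 to 31707 with BaP, 31633 to 37021 with DAT and 32436 to 34003 with MCA. The beta-actin ratio averaged 0.31 in DMSO at 120 h, 0.44 with BaP and 0.37 with AAF, and the arrays of both chemicals lay above those of DMSO. With DAT it averaged 0.33 and with MCA 0.30. Their part in the results was not tested.

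In approach 2 at 24 h, Aspn and Ogn fell with 3 of 4 chemicals. The beta-actin ratio averaged 0.29 in DMSO, 0.40 with BaP, 0.38 with DAT and 0.42 with MCA, and 0.37 with AAF, with which 0 members were called, each range overlapping that of DMSO. Its part in the results was not tested. With BaP 1.5 µM, 2 members fell, where 1.2% of genes fell and 2.41% were called. Aspn read 232, 338 and 509 against 662, 972 and 1217 in DMSO, and fell by 1.42 ± 0.38 (adjusted p = 0.048), and Ogn fell by 0.69 ± 0.17 (adjusted p = 0.025), from 3138, 3531 and 4250 to 1871, 2263 and 2340. The groups did not overlap. Both calls rest on few arrays: without any one array of either group 0 or 1 of them remained, with adjusted p up to 0.26 for Aspn and 0.19 for Ogn. With the replicate number as a block both stood, and Fmod (-0.71, adjusted p = 0.0072) and Omd (-0.97, adjusted p = 0.033) were lower as well.

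With DAT 700 µM at 24 h, 3 members fell, where 3.66% of genes fell, 4.19% rose and 7.84% were called. Ogn read 1143, 1387 and 1668, and fell by 1.30 ± 0.17, or 2.46-fold (adjusted p = 1.29e-05). Aspn read 181, 238 and 422, and fell by 1.65 ± 0.38, or 3.14-fold (adjusted p = 0.0069). Omd read 8.64, 36.9 and 49.9 against 79.2, 95.2 and 95.8 and fell by 1.40 ± 0.33 (adjusted p = 0.0078), and without the array at 8.64 the difference was -1.0 (adjusted p = 0.083). The 3 genes that fell are the 3 neighbours on chromosome 13, named here after their values were seen, while Dcn (0.00) and Bgn (-0.01) were level. With MCA 20 µM, 2 members fell, where 0.689% of genes fell, 0.625% rose and 1.31% were called: Ogn by 0.98 ± 0.17 (adjusted p = 0.0017), with 1423, 1861 and 1943, and Aspn by 1.61 ± 0.38 (adjusted p = 0.029), with 210, 267 and 435. The Aspn call was lost without any of 4 arrays (adjusted p up to 0.19). Fmod read 293, 306 and 379, below all controls of 498, 548 and 639, at -0.80 (adjusted p = 0.092), and passed with the replicate block (adjusted p = 0.0035).

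With AAF 10 µM at 24 h, 0 of 8 members passed in limma, where 0.0237% of genes were called, and 0 had an unadjusted p under 0.05. Differences ran from -0.28 in Omd to 0.04 in Bgn. The summed smooth muscle markers in approach 2 at 24 h were 10075 to 12582 in DMSO, 9553 to 10371 with BaP, 8561 to 10097 with DAT and 8882 to 10790 with MCA, and each treated range overlapped that of DMSO. Of the 9 marker sums, those of macrophages with DAT (620 to 691 against 514 to 617) and of fat with AAF (63.1 to 148 against 151 to 155) were the only ones without overlap there.

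At 120 h in approach 2, AAF was at 10 µM and the other chemicals at 0.1 or 0.2 µM. Without a replicate block, 1 member passed in 1 of 4 treatments. With MCA 0.1 µM, 1.16% of genes fell and 2.47% were called. Lum read 35.5, 49.9 and 79.7 against 191, 204 and 208 and fell by 1.51 ± 0.34 or 2.86-fold (adjusted p = 0.0090). Without the array at 35.5 the difference was -1.24 (adjusted p = 0.085). The summed smooth muscle markers were 6297 to 7337 there and 8465 to 9333 in DMSO, and the bone marker sum 141 to 157 and 165 to 210. No other marker sum with MCA lay apart from DMSO. The smooth muscle sum lay below DMSO without overlap with BaP 0.1 µM too. The tendon, fat and epithelial sums lay above it with AAF, and the tendon sum with DAT. The part of these sums in the results was not tested. With the replicate block Fmod (-0.74, adjusted p = 0.0050) and Dcn (-0.36, adjusted p = 0.013) were lower with MCA 0.1 µM too. Lum was thus lower with MCA 0.1 µM in approach 2 and higher with MCA 2 µM in approach 1 at the same time, each against its own DMSO, and this difference between approaches was not tested.

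With BaP 0.1 µM at 120 h, 0 of 8 passed in limma, where 1.44% of genes were called (0.958% higher and 0.483% lower), and 2 (Fmod at -0.61 and Lum at -1.0) had an unadjusted p under 0.05, against 11% of all genes. Lum read 64.4, 92.0 and 93.6 there, below all DMSO arrays. With the replicate number as a block Fmod and Lum passed with BaP 0.1 µM, both lower. With AAF 10 µM, 0 passed, where 0.562% of genes were called (0.182% higher and 0.38% lower), and 1 (Lum, at -0.81, with 86.4, 98.1 and 130) had an unadjusted p under 0.05. With DAT 0.2 µM, 0 passed and 0 had an unadjusted p under 0.05, and 0% of genes were called by limma, with 641 genes at an unadjusted p under 0.05. The Lum differences from DMSO in approach 2 at 120 h thus ran from -1.51 to -0.22. Without a replicate block only that with MCA 0.1 µM passed. These comparisons share the 3 DMSO arrays, which read 191, 204 and 208.

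BaP and MCA at 0.1 µM and 120 h were the only pair of chemicals at the same concentration and time, and 1 pair was compared. Between them 0 of 8 members passed in limma, where 0.0791% of genes were called, and 0 had an unadjusted p under 0.05. The widest differences were 0.53 in Aspn (95% interval -0.26 to 1.33) and 0.51 in Lum (-0.18 to 1.20), so neither likeness nor a difference of that size is shown. For AAF 10 µM the 120 h response minus the 24 h response passed for 0 of 8 members, where 0% of genes were called by limma, and 0 members and 497 genes had an unadjusted p under 0.05.

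The collagen list fell in many of the groups in which Fmod, Aspn and Ogn fell. Of its 14 genes, 5 fell with BaP 0.5 µM at 24 h and 11 fell at 120 h, 12 fell with MCA 2 µM at 120 h and 9 with DAT 50 µM at 120 h, and 0 rose in any of these, where 4.91%, 13%, 20.3% and 12% of all genes fell. The medians were -0.14, -0.47, -0.62 and -0.26, against -0.00 to -0.02 over all genes. Col11a1 fell most at 120 h, by 1.96 with BaP, 2.00 with MCA and 0.72 with DAT, and by 1.42 with MCA 0.1 µM in approach 2. In approach 2 at 24 h, however, 2, 1 and 0 of the 14 fell with BaP, DAT and MCA, where Aspn and Ogn fell and 1.2%, 3.66% and 0.689% of all genes did. With MCA 2 µM at 24 h, where Aspn and Ogn fell too, 2 collagen genes rose and 1 fell, where 1.08% and 1.14% of all genes did. With AAF 25 µM at 24 h 4 collagen genes rose, Col6a3 most (0.42), where 0.609% of all genes rose.

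Among the proteases, Mmp3 and Mmp13 rose with 3 of the 4 chemicals. At 120 h in approach 1, Mmp3 (stromelysin, which can cleave decorin) rose by 4.60 with MCA, 3.79 with DAT and 1.88 with AAF, and was not among the calls with BaP. Mmp13, a collagenase that can cleave fibromodulin, rose by 2.32, 1.57 and 0.79 in the same groups and fell by 1.25 with BaP. In approach 1 at 120 h these are the groups in which Lum rose, and BaP the one in which it fell, and a link between them was not tested. In all, 3 of 10 proteases rose and 4 fell with MCA, where 18.9% of all genes rose and 20.3% fell. With DAT 3 rose and 2 fell (11.7% and 12% of all genes), with AAF 2 rose and 0 fell (0.324% and 0.0317%), and with BaP 2 rose and 6 fell (13.8% and 13%). In approach 2 at 120 h Lum fell with MCA 0.1 µM, where 2 proteases rose and 1 fell (1.31% and 1.16% of all genes). In the other groups there Lum was not called without a replicate block. Of the proteases 2 rose and 0 fell with BaP 0.1 µM (0.958% and 0.483%), 1 rose and 0 fell with AAF 10 µM (0.182% and 0.38%), and 0 were called with DAT 0.2 µM (0%). Adamts1 fell with BaP and MCA at 24 h in both approaches, by 1.14 and 0.30 in approach 1 and 0.87 and 0.66 in approach 2, and by 1.13 with DAT 700 µM.

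Among the enzymes of glycosaminoglycan synthesis, Csgalnact1, which starts chondroitin chains, fell by 1.29 with BaP 0.5 µM at 120 h and rose by 0.67 with DAT and 0.65 with MCA. Of the whole list, 6 of 21 fell and 3 rose with BaP at 120 h, where 13% of all genes fell and 13.8% rose. With MCA 5 fell and 3 rose (20.3% and 18.9% of all genes), and with DAT 2 fell and 2 rose (12% and 11.7%). Against the same shares, of the 15 growth factors and receptors 3 fell and 6 rose with BaP, 9 fell and 4 rose with MCA, and 4 fell and 1 rose with DAT at 120 h. Cd44, a hyaluronan receptor, rose by 1.14 with MCA and 0.68 with DAT, and Ccn4, a matrix protein that binds decorin and biglycan, fell by 1.15 and 0.65. Of 10 other family members 8 had a probe set and 2 were tested, and of these Nyx (nyctalopin) rose with time in DMSO (0.37 and 0.71), with BaP 0.5 µM at 120 h (0.66) and with DAT 700 µM (0.69).

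Likeness between profiles was described by Pearson's correlation of log2 values centred on the mean of their approach and time, over the 30 arrays of each approach, which share treatments, controls and scaling. Fmod and Aspn had 0.92 in approach 1 and 0.77 in approach 2, Aspn and Ogn 0.79 and 0.73, and Fmod and Ogn 0.86 and 0.29. Fmod and Lum had 0.65 and 0.80, and Dcn and Ogn -0.01 and -0.04. The genes most like Fmod over both approaches were Fbln5 (0.92 and 0.84), Apod (0.83 and 0.84), Rnls (0.82 and 0.79), Ror1 (0.91 and 0.79) and Aoc3 (0.78 and 0.77). Most like Aspn were Gulp1 (0.88 and 0.88), Gtdc1 (0.84 and 0.89) and Smyd3 (0.84 and 0.82), and most like Ogn were Brinp3 (0.87 and 0.85), Gulp1 (0.89 and 0.81) and Dnajb6 (0.87 and 0.80). Lum was most like Apod (0.85 and 0.84), Rad51b (0.87 and 0.79) and Ifi27l2a (0.82 and 0.77). Dcn was most like Lta4h (0.74 and 0.70), Laptm4a (0.85 and 0.66) and Mfsd1 (0.66 and 0.68), Prelp like Apba1 (0.87 and 0.65), Gnas (0.67 and 0.65) and B3gnt9 (0.64 and 0.61), Bgn like Il17ra (0.77 and 0.63), Agpat3 (0.59 and 0.59) and Lysmd4 (0.58 and 0.64), and Omd like Nhej1 (0.68 and 0.60), Tecrl (0.55 and 0.69) and Hhat (0.61 and 0.55).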

How the data were processed

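Balb/c 3T3 cells were treated at 60 to 65% confluence, per the labels' protocols, and biotin-labelled RNA was hybridised to 60 single-colour arrays. The submitters' processing notes name GCOS as software, and its settings are not stated. The authors deposited 1 linear intensity per probe set and array.

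Of 45101 probe sets, 34958 had 1 gene symbol in the platform table, 932 had several and 9211 were unlisted. Values were log2(intensity + 16), quantile normalized within each approach. One limma fit per approach (limma 3.58.1, R 4.3.3; 10 group means, 20 residual degrees of freedom, trended eBayes, two-sided) gave 24 comparisons, adjusted over 12635 genes; 95% intervals come from these fits, whose precision is limited by 3 arrays a group. Simulated data of 12635 genes held 67 with a 1.5-fold and 67 with a 2-fold change. For BaP 0.5 µM at 24 h in approach 1, 86.6% of the 1.5-fold and 98.5% of the 2-fold changes were recovered. For BaP 1.5 µM at 24 h in approach 2 these were 38.8% and 76.1%. The simulated noise was independent between arrays, unlike that of same-numbered arrays (below), so recovery in the real arrays may differ.

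Same-numbered arrays of the compared groups deviated together (every correlation over 0.1) in 14 of 19 comparisons, a pairing taken from the data and the replicate numbers. Blocked values stand beside only some results there, mainly where the block added a call. The block kept all 56 calls of the main fits. The members, gene lists and tests were chosen with earlier results of these data known. Of each gene list, at most the 4 called genes with the largest absolute change per comparison are named, other than 1 said to be named after its value was seen.

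Alternatives were 1 fit of 60 arrays, the compared groups alone, a replicate block, no or joint normalization, pseudocounts of 1 and 64, no filter, the mean of probe sets, and leaving out each array.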

Additional observations from a re-analysis of the deposited data

Results flagged for a closer look

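The response to a chemical differed between 24 h and 120 h for 11 pairs of a member and a treatment of approach 1, by the limma contrast of the 120 h difference from DMSO minus the 24 h difference. With BaP 0.5 µM the contrast was -1.08 for Fmod, -0.93 for Lum, -0.75 for Dcn and -1.38 for Aspn. With DAT 50 µM it was 1.06 for Lum and -0.84 for Aspn. With MCA 2 µM it was -0.92 for Fmod, 0.69 for Lum, -0.47 for Prelp, -0.36 for Bgn and -0.63 for Aspn. Without replicate 1 of DMSO at 120 h, the contrast of Fmod with MCA was -0.59 (adjusted p = 0.064) and that of Prelp -0.38 (adjusted p = 0.089). That of Lum with MCA was 0.56 (adjusted p = 0.064) without replicate 3 of DMSO at 24 h and 0.58 (adjusted p = 0.055) without replicate 2 of MCA at 24 h.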

How the results depend on the processing

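Of 56 calls among 192 pairs of a member and a comparison, 1 fit of all 60 arrays kept 40 and gained 5, the compared groups alone kept 43, the replicate block kept 56 and gained 14, no normalization kept 51 and gained 3, and each other setting kept at least 53. Leaving out single arrays ended 17 calls and gained 11, and 0 reversed. Called members, in 1 fit of 60 arrays against the separate fits, numbered 2 against 4 with BaP 0.5 µM, 0 against 2 with MCA 2 µM and 4 against 2 with BaP 1.5 µM at 24 h, and at 120 h 0 against 1 with AAF 25 µM, 2 against 5 with DAT 50 µM, 1 against 0 with BaP 0.1 µM and 2 against 1 with MCA 0.1 µM. For the change between times they were 2 against 4 (BaP), 0 against 2 (DAT) and 2 against 5 (MCA). With the compared groups alone they were 0 with MCA 2 µM and BaP 1.5 µM and 1 with MCA 20 µM at 24 h, and 0 with AAF 25 µM and 3 with DAT 50 µM at 120 h. With the replicate block they were 2 with AAF 25 µM and 4 with BaP 1.5 µM at 24 h, and 2 with BaP 0.1 µM and 3 with MCA 0.1 µM at 120 h. Without normalization 1 was called with MCA 2 µM at 24 h and 1 with BaP 0.1 µM. BaP 1.5 µM gave 1 with joint normalization, a pseudocount of 64, no filter or the mean of probe sets, MCA 2 µM at 24 h gave 1 without the filter, and AAF 25 µM at 24 h gave 1 with a pseudocount of 1 or the mean of probe sets. Leaving out each array gave 0 to 2 with AAF 25 µM at both times, 3 to 5 with BaP 0.5 µM, 1 to 3 with MCA 2 µM, 0 to 1 with BaP 1.5 µM and 1 to 2 with MCA 20 µM at 24 h, 3 to 6 with DAT 50 µM and 0 to 1 with MCA 0.1 µM at 120 h, and 3 to 5 for the MCA change between times. The cause was not tested.

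In comparisons where not every same-numbered correlation was over 0.1, the block called Fmod with MCA 2 µM at 24 h (adjusted p = 0.037). It also called Fmod and Lum with BaP 0.1 µM (adjusted p = 0.024 and 0.027). Those correlations averaged 0.23 with MCA (lowest -0.18) and 0.21 with BaP (lowest 0.063). Over all genes, the separate fits and 1 fit of 60 arrays called 3001 and 1269 with DAT 50 µM at 120 h, of which 49.4% and 61.9% were higher, and 71 and 368 with AAF 10 µM at 120 h, where the block called 713. The DMSO time comparison of approach 2 called 5077 genes, 44.3% of them higher, and without normalization 5580, 55.9% of them higher. Low intensity limits Lum and Omd.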
